A study of Mus musculus with 4 samples.

Results

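Macrophages with transcripts of Pf4 and F13a1 were picked out of the ascites of tumor-bearing mice, and they numbered 384 of 2921 ascites cells (13.1%, exact Clopper-Pearson interval 11.9 to 14.4%) and of 11253 cells in the whole series. A cell was taken where its UMIs (barcoded captured transcripts, counted after removal of amplification copies) of Pf4, F13a1, Ccl12 and Ppbp came to at least 2 and outnumbered its UMIs of Prg4, Alox15, Cd5l and Saa3, and where Krt8 was at 0. The Krt8 condition removed no ascites cell from this choice, although 23 ascites cells had Krt8. The 2417 ascites cells with at least 2 UMIs of Prg4, Alox15, Cd5l and Saa3, more than of the first 4 genes, and no Krt8 are called resident-gene macrophages here, and 120 cells met neither rule. With Saa3 left out of that rule, 1598 of the 2417 cells still met it, so the others rest on Saa3. Because measured values chose the cells, the 8 rule genes are described and support nothing, and levels of other genes in the same cells are given as a description too.

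The study profiled single cells of KPCA ascites and of omental tumors grown from a family of syngeneic cancer lines, KPCA.A, KPCA.B or KPCA.C, which per the labels derive from epithelial cells of the fallopian tube. The mice were C57BL6J, aged 9 weeks for ascites and 8 weeks for tumors, and each tumor library pooled 4 tumors. The labels do not say which KPCA line gave the ascites, nor how many mice it came from. Each group had 1 droplet library, so no difference below has a replicate check, no test was possible, and intervals cover counting error only, at 95%.

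The peritoneal cavity is known to hold a large population of resident macrophages that depend on the transcription factor Gata6, and a smaller one that is renewed from blood monocytes and carries Ccr2, Mrc1 and MHC class II. Pf4 and Ppbp encode chemokines best known from platelet granules, and Pf4 is also transcribed by many tissue macrophages. F13a1 encodes the A subunit of coagulation factor XIII, a transglutaminase that cross-links fibrin, and is made by monocytes and macrophages; Ccl12 encodes a mouse ligand of the monocyte receptor Ccr2.

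The 384 cells had a median of 2254 UMIs (range 500 to 6406) and 950 genes, against 2111 UMIs and 899 genes in resident-gene macrophages. Median mitochondrial shares were 5.48% and 4.01% in the same order. Their UMIs summed to 883902, against 6049797 in resident-gene macrophages, and levels below are CPM, the UMIs of a gene as a share of all UMIs of the summed cells, scaled to counts per 1e6. Over the whole series the libraries held 7420674 UMIs for ascites, and 58591493, 40054369 and 95130645 UMIs for tumors of KPCA.A, KPCA.B or KPCA.C. The labels state 5000 cells, and the ascites matrix held 3118 barcodes, of which 2921 passed the filter. Of all ascites barcodes 1 was also present in KPCA.A, and none of the 384 cells was shared with another library.

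Macrophage markers were present in the chosen cells, while defining genes of platelets were almost absent. Of 10 macrophage markers all had UMIs, 5 were higher than in resident-gene macrophages past 2-fold and 1 lower, with a median log2 ratio of 0.97. With only the 186 chosen cells of cluster 3, described further on, that median was -0.52. Csf1r, the receptor of the macrophage growth factor, was at 165 CPM in Pf4 and F13a1 macrophages and 142 CPM in resident-gene macrophages, and the lysozyme gene Lyz2 at 2649.6 and 988 CPM. The phagocytic marker Cd68 was at 201 and 281 CPM. Adgre1, which encodes F4/80, was lower, at 71.3 against 391 CPM (5.49-fold, interval 4.27 to 7.16). The 10 platelet and megakaryocyte genes summed to 2 UMIs in the 384 cells, with Itga2b, Gp9, Gp1ba, Tubb1 and 5 others at 0. Lists for T, NK, mast and mesothelial cells had 0 UMIs, those for B cells 2, those for fibroblasts and tumor epithelium 1 each, and those for endothelial, dendritic and erythroid cells 12, 16 and 23. The 5 neutrophil genes summed to 2167 UMIs, nearly all from the calprotectin gene S100a8, at 2239 CPM in Pf4 and F13a1 macrophages and 1954 CPM in resident-gene macrophages; their part in the results was not tested.

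Rule genes were unevenly spread over the chosen cells. Pf4 was detected in 359 cells (93.5%), F13a1 in 306 (79.7%), Ccl12 in 177 (46.1%) and Ppbp in 89 (23.2%). Both Pf4 and F13a1 were found in 283 cells (73.7%), Pf4 without F13a1 in 76 and F13a1 without Pf4 in 23, and 2 cells had neither. All 4 genes were found in 41 cells, 3 of them in 133, 2 in 158 and 1 in 52. The summed UMIs of these 4 genes had a median of 20.5 per cell, a lowest value of 2 and a highest of 271. The plot of rule-gene UMIs per cell shows that the groups meet along a diagonal with no empty band between them.

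**Figure D1:**
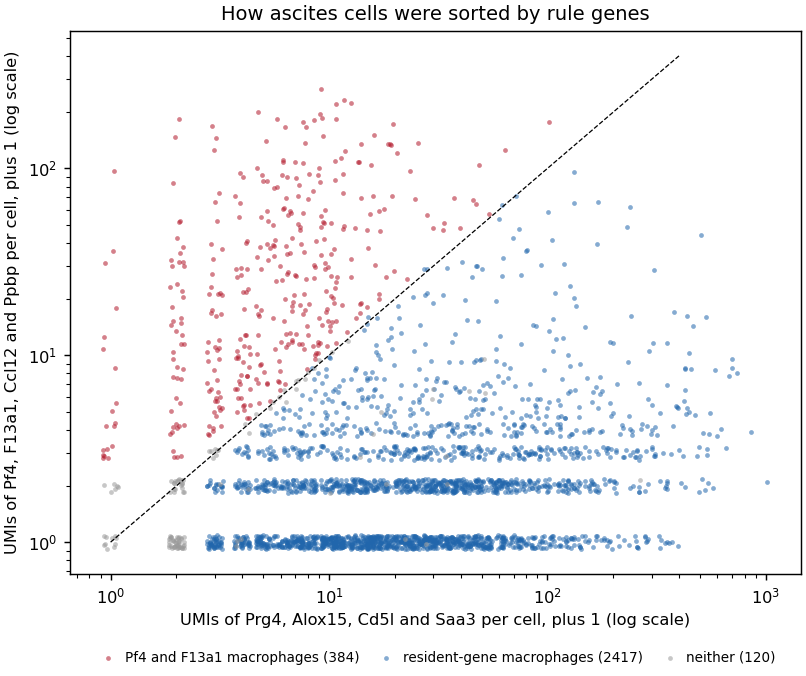
UMIs of Pf4, F13a1, Ccl12 and Ppbp (vertical, plus 1, log scale) against UMIs of Prg4, Alox15, Cd5l and Saa3 (horizontal, plus 1, log scale) in each of 2921 ascites cells, with points spread slightly so that they do not hide each other. The dashed line marks equal values; 384 Pf4 and F13a1 macrophages lie above it, 2417 resident-gene macrophages below it, and 120 cells met neither rule.

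Levels of the rule genes followed from the choice of cells. Pf4 was at 14354.5 CPM in Pf4 and F13a1 macrophages and 618 CPM in resident-gene macrophages, F13a1 at 1139 and 123 CPM, Ccl12 at 972 and 35.5 CPM, and Ppbp at 931 and 12.1 CPM. Prg4, a lubricating proteoglycan gene, was at 72.4 and 1637 CPM, the lipoxygenase gene Alox15 at 43.0 and 655 CPM, Cd5l at 45.3 and 468 CPM, and the acute-phase gene Saa3 at 2736 and 18750.4 CPM. Saa3 thus still had a UMI in 94.3% of the chosen cells. No lymphocyte cluster was available to read free RNA, so a pair of small clusters was used. Cluster 8 (20 cells, led by Stmn2, Tm4sf1 and Krt8, median 2550.0 UMIs) had Pf4 at 93.3 CPM, with a UMI in 7 cells, and cluster 9 (18 cells, led by the neutrophil genes Retnlg and S100a9, median 679 UMIs) had it at 234 CPM, with a UMI in 3 cells. F13a1 was at 6.22 and 0 CPM in these clusters, and Saa3 at 1511 and 4373 CPM. The Pf4 levels of both macrophage groups were above the Pf4 readings of the small clusters. The Saa3 level of the chosen cells lay between the Saa3 readings, and whether these cells make Saa3 was not tested. Whether the cells of the small clusters make Pf4 themselves was not tested either.

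Cells just inside and just outside the limits had overlapping levels of Ccl2 and Cxcl3, while Ccl7 was highest in 1 of the sets inside. The 11 chosen cells with exactly 2 rule UMIs had Ccl2 at 1470 CPM, Ccl7 at 367 CPM and Cxcl3 at 1561 CPM. The 28 chosen cells with 1 more UMI of the first gene set than of the second had Ccl2 at 2362 CPM, Ccl7 at 1792 CPM and Cxcl3 at 512 CPM. Just outside, the 24 cells with equal UMIs of both sets had Ccl2 at 1646 CPM, Ccl7 at 653 CPM and Cxcl3 at 653 CPM. The 38 cells with 1 UMI fewer had Ccl2 at 2427 CPM, Ccl7 at 472 CPM and Cxcl3 at 984 CPM. In all, 711 cells without Krt8 had at least 2 UMIs of the first set and fewer than of the second, and these include the 38.

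The first comparison set Pf4 and F13a1 macrophages against resident-gene macrophages of the same library. They carried far more transcript of monocyte-attracting chemokines, of the scavenger receptors Cd163, Mrc1 and Stab1, of the transcription factors Maf and Irf8, and of Apoe, and far less of the resident peritoneal program. A gene counted as higher or lower where the log2 ratio of CPM plus 5 reached 1 or -1 (2-fold), among genes with at least 50 UMIs in both groups together. Of 7144 such genes, 245 (3.43%) were higher and 464 (6.49%) lower, with a median log2 ratio of 0.03 over all. Against all other ascites cells, 240 of 7299 genes (3.29%) were higher and 480 (6.58%) lower. With resident-gene macrophages chosen without Saa3, 317 of 6448 genes (4.92%) were higher and 490 (7.6%) lower. Of the log2 ratios of named genes, 84 then stayed within the width of their counting interval, 52 moved beyond it and 1 turned sign.

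**Figure D2:**
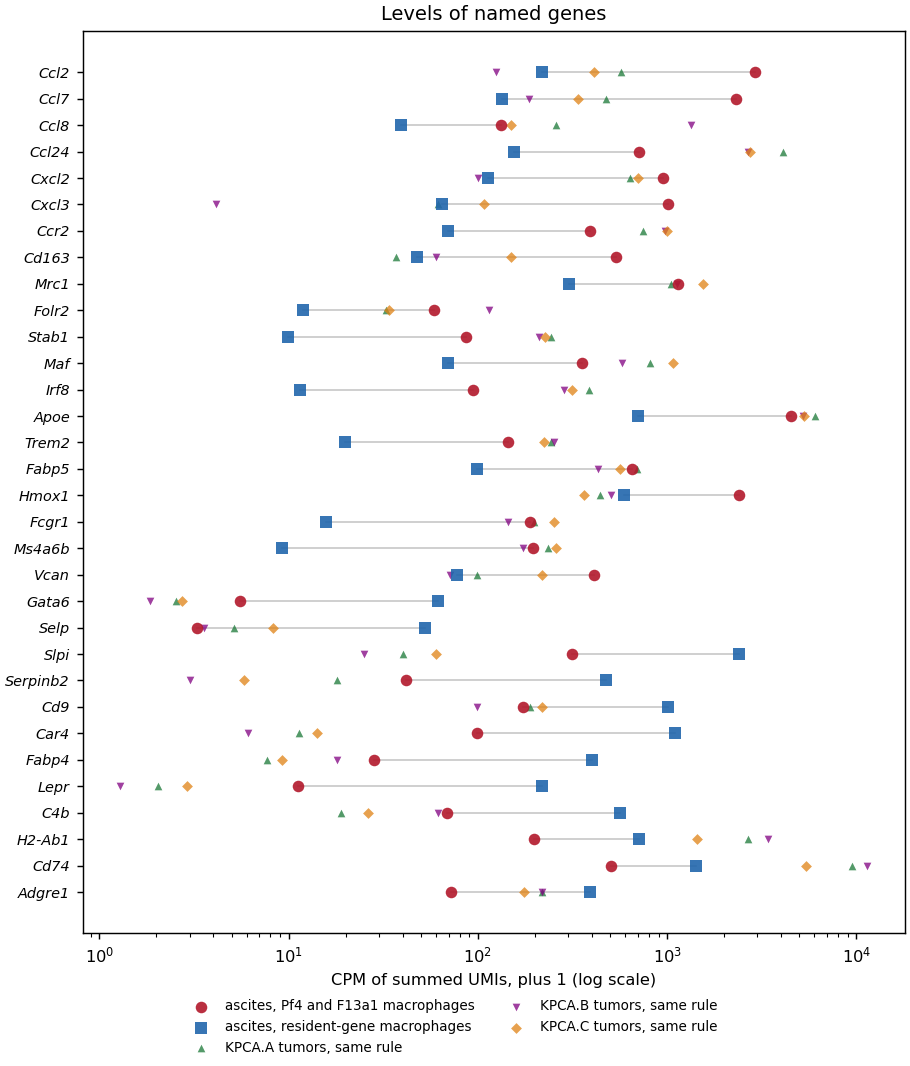
CPM of summed UMIs plus 1 (log scale) for 32 genes in Pf4 and F13a1 macrophages (red circles) and resident-gene macrophages (blue squares) of ascites, joined by a line, and in rule-matched cells of the KPCA.A, KPCA.B or KPCA.C tumors (small symbols). Ccl2 lay at 2915 against 216 CPM and Gata6 at 4.53 against 60.3 CPM in the 2 ascites groups; each symbol is 1 library.

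CC chemokine ligands were mostly higher. Of 10 measured genes of this list 7 were higher past 2-fold and 2 lower, with a median log2 ratio of 1.48. Ccl2 and Ccl7, ligands that draw Ccr2-bearing monocytes, stood at 2915 against 216 CPM (13.5-fold, interval 12.6 to 14.4) and 2315 against 133 CPM (17.4-fold, 16.0 to 18.9). Both genes lie beside the rule gene Ccl12 on chromosome 11 of GRCm38, Ccl2 at chr11:82035571-82037453, Ccl7 at chr11:82045712-82047525, Ccl12 at chr11:82101845-82103400 and Ccl8 at chr11:82115185-82116799. Ccl8 was at 131 against 38.2 CPM (3.44-fold, 2.73 to 4.31), but had a UMI in 5.47% of Pf4 and F13a1 macrophages and 3.85% of resident-gene macrophages, so few cells carried it. Ccl11, which lies between Ccl7 and Ccl12, had 0 UMIs in both groups.

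Other CC ligands differed as well. Ccl3 was at 113 against 18.5 CPM (6.11-fold, 4.62 to 8.08), and Ccl24, an eosinophil attractant of the alternative activation list, at 708 against 154 CPM (4.60-fold, 4.15 to 5.09). Ccl9 was at 3046 against 1238 CPM, while Ccl6 did not pass 2-fold, at 17345 against 13024 CPM. These directions held when each cell was thinned to 1000 UMIs. In 309 thinned Pf4 and F13a1 macrophages Ccl2 was found in 68.0% (62.4 to 73.1%) and Ccl7 in 54.0% (48.3 to 59.7%), against 9.63% and 8.31% of 1817 thinned resident-gene macrophages. Without thinning the shares were 74.2% against 15.3% for Ccl2 and 62.0% against 14.9% for Ccl7. Ccl2 had a UMI in 8 of the 20 cells of cluster 8 and Ccl7 in 10, at 230.1 and 199 CPM, and in cluster 9 they had a UMI in 1 and 0 of 18 cells. The resident-gene level was uneven, with Ccl2 at 1193 CPM and Ccl7 at 500.1 CPM in the 312 resident-gene macrophages that fell in clusters 3 and 4, described further on, against 84.1 and 83.3 CPM in the other 2105. Whether cells of cluster 8 make these chemokines themselves was not tested, so its values are given as a comparison and not as a background.

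Ccl17 and Ccl5 were lower, but through 1 small cluster. Ccl17, a ligand of Ccr4, was at 35.1 against 286 CPM and Ccl5 at 22.6 against 50.4 CPM. Cluster 7 (126 cells, of which 108 were resident-gene macrophages and 6 Pf4 and F13a1 macrophages) was led by Ccl17, Ifitm1, H2-Eb1 and Cd74. With cluster 7 left out of the resident-gene macrophages the log2 ratios were 0.0295 for Ccl17 and 0.53 for Ccl5, so neither was lower.

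CXC chemokine ligands were few and mostly higher. Of 4 measured genes 3 were higher and 0 lower, with a median log2 ratio of 2.33. Cxcl3 and Cxcl2, which attract neutrophils through Cxcr2, were at 1003.5 against 63.3 CPM (15.9-fold, 14.0 to 17.9) and 947 against 111 CPM (8.50-fold, 7.67 to 9.42). Cxcl16 was at 57.7 against 15.4 CPM. In thinned cells Cxcl3 was found in 37.9% of Pf4 and F13a1 macrophages and 3.69% of resident-gene macrophages, and Cxcl2 in 44.7% and 7.48%; unthinned shares were 42.4% and 5.79% for Cxcl3 and 54.2% and 12.3% for Cxcl2. Cxcl2 was higher still in the neutrophil-led cluster 9, at 5154 CPM and in 15 of 18 cells.

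The neutrophil chemokine genes and the platelet chemokine genes of the rule share 1 locus on chromosome 5, with Ppbp at chr5:90768518-90770063, Pf4 at chr5:90772435-90773383, Cxcl3 at chr5:90786103-90789600 and Cxcl2 at chr5:90903871-90905938. Going along it, Cxcl5, Ppbp, Pf4, Cxcl3, Cxcl1 and Cxcl2 had 18, 823, 12688, 887, 5 and 837 UMIs in Pf4 and F13a1 macrophages, against 3, 73, 3738, 383, 13 and 674 UMIs in resident-gene macrophages. Transcripts of this locus were therefore mainly those of Pf4, Ppbp, Cxcl3 and Cxcl2, while Cxcl1 was near 0 and Cxcl15, between Cxcl3 and Cxcl1, had 0 UMIs. The 250 bases before the start of these 4 genes are shown from RefSeq (GRCm38.p6, plus strand), because the neighbours differed in how they varied among the chosen cells, as described for the clusters below. Capitals mark the letters GGAATTTCC, a motif of the NF-kB family, and the TATA box letters TATAAA. Both strands were searched, and the motifs do not overlap. Starts are those of RefSeq, which differ from the GENCODE starts just given for Cxcl3 and Cxcl2; the Cxcl2 window reaches past the GENCODE start.
Pf4, chr5:90772185-90772434: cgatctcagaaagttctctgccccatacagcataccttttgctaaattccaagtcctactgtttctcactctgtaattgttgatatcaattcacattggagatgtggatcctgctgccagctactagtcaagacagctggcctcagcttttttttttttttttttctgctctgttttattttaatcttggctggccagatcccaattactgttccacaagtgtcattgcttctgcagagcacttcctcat
Ppbp, chr5:90768268-90768517: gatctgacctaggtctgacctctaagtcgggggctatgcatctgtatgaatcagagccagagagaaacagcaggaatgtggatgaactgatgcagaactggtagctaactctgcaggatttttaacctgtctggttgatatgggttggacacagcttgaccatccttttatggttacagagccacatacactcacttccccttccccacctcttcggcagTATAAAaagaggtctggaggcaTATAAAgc
Cxcl3, chr5:90785851-90786100: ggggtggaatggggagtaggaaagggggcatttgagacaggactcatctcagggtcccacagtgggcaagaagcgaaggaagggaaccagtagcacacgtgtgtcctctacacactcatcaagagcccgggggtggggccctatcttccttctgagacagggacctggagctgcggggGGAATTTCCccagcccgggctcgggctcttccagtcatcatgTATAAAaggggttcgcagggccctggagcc
Cxcl2, chr5:90903649-90903898: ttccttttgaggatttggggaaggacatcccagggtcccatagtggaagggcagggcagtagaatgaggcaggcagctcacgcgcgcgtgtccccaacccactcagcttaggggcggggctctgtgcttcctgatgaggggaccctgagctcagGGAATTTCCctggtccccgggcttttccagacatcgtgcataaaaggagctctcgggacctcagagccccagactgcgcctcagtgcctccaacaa
GGAATTTCC lay 72 bases before the RefSeq start of Cxcl3 and 96 bases before that of Cxcl2, and also 70 bases before that of Cxcl1. It was not among the letters of the Pf4 or Ppbp windows. Of 32851 windows of this length in the table, 94 (0.286%) hold it. TATAAA lay 30 and 8 bases before the start of Ppbp, 30 before that of Cxcl3, 31 before that of Ccl12 and 32 before that of Ccl8, and 4063 of all windows (12.4%) hold it. TGCTGAC, a motif of the Maf family that was also searched, was in 1252 windows (3.81%) and in none of the 4 shown. A match is a description of the letters and not a bound site. Whether a match bears on the levels of these genes or on their spread over the clusters was not tested.

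Chemokine receptors were split. Of 7 measured receptors 3 were higher and 1 lower, with a median of 0.35. Ccr2, the receptor of Ccl2, Ccl7 and Ccl12, was at 390.3 against 68.6 CPM (5.69-fold, 4.92 to 6.58), and Ccr1, a receptor of Ccl3, at 446 against 194 CPM. The scavenging receptor Ackr3 was at 4.53 against 66.0 CPM. Transcripts of both the ligands and their receptor Ccr2 were thus higher in the same group of cells.

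Genes of tissue macrophages marked by Folr2 and Lyve1 were mostly higher, with 10 of 16 past 2-fold upward, 2 downward and a median of 1.31. Cd163, the receptor that takes up haptoglobin-bound hemoglobin, was at 536 against 46.8 CPM (11.5-fold, 9.87 to 13.3). The scavenger receptor gene Stab1 was at 86.0 against 8.93 CPM (9.63-fold, 6.71 to 13.9), the mannose receptor gene Mrc1 at 1134 against 302 CPM (3.75-fold, 3.47 to 4.06), the folate receptor gene Folr2 at 57.7 against 10.9 CPM, and Lyve1 at 23.8 against 6.28 CPM. Most cells carried a part of this set and few all of it. In thinned cells Cd163 was found in 27.2% against 3.19%, Mrc1 in 56.6% against 19.5% and Folr2 in 4.53% against 0.991%; without thinning the shares were 36.7% and 5.71%, 68.0% and 30.9%, and 10.4% and 2.11%. Ltc4s, a leukotriene synthase, went the other way, at 210.4 against 836 CPM.

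Some macrophage transcription factors differed too. Maf was at 355 against 68.8 CPM and Irf8, a monocyte and macrophage factor, at 92.8 against 10.4 CPM (8.91-fold, 6.34 to 12.6). Of 24 measured factors 3 were higher and 5 lower, so most did not pass 2-fold; Spi1, which encodes PU.1, was at 214 against 243 CPM. Gata6 was at 4.53 against 60.3 CPM (13.3-fold lower, 5.16 to 49.2). It was found in 0 of 309 thinned Pf4 and F13a1 macrophages, which allows a share of up to 0.971%, against 6.16% of thinned resident-gene macrophages; the unthinned shares were 1.04% and 12.3%. Bhlhe40, Klf2, Zfp36l2 and Rarb were the other lower factors.

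The resident large peritoneal list had 0 of 23 genes higher, 15 lower and a median of -1.51, and this list was known from earlier results to separate such cells. The protease inhibitor gene Slpi was at 315 against 2391 CPM (a ratio of 0.132), the plasminogen activator inhibitor gene Serpinb2 at 40.7 against 471 CPM (11.6-fold lower, 8.34 to 16.6) and the P-selectin gene Selp at 2.26 against 51.7 CPM. Outside that list, the leptin receptor gene Lepr was at 10.2 against 218 CPM (21.4-fold lower, 11.3 to 47.0), Fgfr1 at 32.8 against 510.3 CPM (15.6-fold lower, 10.8 to 23.3), the carbonic anhydrase gene Car4 at 98.4 against 1095 CPM and the fatty acid carrier Fabp4 at 27.2 against 399 CPM. Not all resident genes were low. Fibronectin Fn1 was at 2368 against 1689 CPM and thrombospondin Thbs1 at 3473 against 3187 CPM, neither past 2-fold.

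Monocyte and small peritoneal macrophage genes were split. Of 15 monocyte genes 6 were higher and 4 lower, with a median of 0.38. Besides Ccr2, the proteoglycan gene Vcan was at 408 against 76.4 CPM (5.35-fold, 4.65 to 6.15), and S100a4, S100a6, Ms4a4c and Ifitm3 were higher. In the chosen cells of clusters 3 and 4, described further on, Vcan was at 722 and 103 CPM. Ly6c2, which marks classical blood monocytes, did not pass 2-fold, at 92.8 against 66.9 CPM. The chitinase-like gene Chil3 was at 6164 against 22107 CPM (3.59-fold lower, 3.49 to 3.69). Of 10 small peritoneal genes 5 were higher and 1 lower, with a median of 0.74; the 5 were Ccr2, Ccl24, Folr2, Mrc1 and Clec10a, so they largely repeat the lists above.

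A set of Ms4a genes side by side on chromosome 19 of GRCm38 stood out by ratio, with Ms4a6c at chr19:11469366-11482192, Ms4a6b at chr19:11516512-11531256 and Ms4a6d at chr19:11586604-11604849. Ms4a6b was at 193 against 8.26 CPM (23.4-fold, 17.0 to 32.8), Ms4a6c at 786 against 103 CPM (7.61-fold, 6.82 to 8.49) and Ms4a6d at 456 against 91.4 CPM (4.99-fold, 4.38 to 5.68). These genes encode membrane proteins with 4 predicted spans, and Ms4a6d was added after its values were seen. Ms4a4d, between Ms4a6b and Ms4a6d, had 0 UMIs in both groups. The high-affinity Fc receptor gene Fcgr1 was at 187 against 14.7 CPM (12.7-fold, 9.75 to 16.6) and the calcium-binding gene Aif1 at 191 against 16.7 CPM (11.5-fold, 8.90 to 14.8).

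Lipid genes moved in opposite directions, with 4 of 21 higher and 9 lower and a median of -0.39. Apoe, the lipoprotein component, was at 4485 against 697 CPM (6.43-fold, 6.16 to 6.72), the lipid and Apoe receptor gene Trem2 at 144 against 18.8 CPM (7.62-fold, 5.87 to 9.91), the cholesterol exporter Abca1 at 205 against 46.1 CPM, and Fabp5 at 651 against 97.5 CPM. Apoe was found in 78.3% against 27.1% of thinned cells and in 86.5% against 44.5% unthinned, and in 8 of 20 cells of cluster 8. On the lower side were Fabp4, the lipase Lpl, Scd1, the tetraspanin Cd9 at 173 against 1005 CPM, and osteopontin Spp1 at 864 against 4093 CPM. Fabp5 and Fabp4, fatty acid carriers of 1 family, therefore differed in opposite directions.

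Of 14 iron and heme genes Cd163 and Hmox1 were higher and none was lower. The heme oxygenase gene Hmox1 was at 2403 against 593 CPM (4.05-fold, 3.84 to 4.28), whereas the ferritin genes Fth1 and Ftl1 were at 10580.4 against 11925 CPM and 7547 against 7368 CPM. Inflammatory genes had 7 of 16 higher, 4 of them chemokines, and 0 lower, with a median of 0.66. Il6 was at 64.5 against 7.44 CPM (8.67-fold, 5.76 to 13.1), Il1b at 105 against 42.0 CPM and the mincle receptor Clec4e at 224 against 75.2 CPM, while the NF-kB inhibitor Nfkbia was at 512.5 against 506 CPM. In the chosen cells of cluster 4, described further on, Il1b was at 14.4 CPM (6 UMIs), below resident-gene macrophages. Alternative activation genes were split as well, with 7 of 15 higher and 2 lower and a median of 0.08. Arg1, which breaks down arginine, was at 4763 against 4513 CPM, and Retnla at 312 against 522 CPM.

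Complement genes had 4 of 16 higher and 5 lower, with a median of -0.18. The receptors C3ar1 and C5ar1 were at 284 against 100.2 CPM and 303 against 138 CPM, and C1qa at 678 against 335 CPM. C4b, a component of the classical pathway, was at 67.9 against 559.9 CPM (8.25-fold lower, 6.39 to 10.8) and C3 at 10.2 against 56.9 CPM. Coagulation genes other than the rule gene F13a1 had 0 of 7 higher and 2 lower, with a median of -0.62; factor V (F5) was at 6.79 against 63.5 CPM and protein S (Pros1) at 27.2 against 77.9 CPM. F13a1 thus stood alone among them in direction, and it was chosen by the rule.

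MHC class II genes were lower with all cells counted, but most of that difference rested on cluster 7. Of 9 genes 6 were lower and 1 higher, with a median of -1.42. H2-Ab1 was at 196 against 707 CPM and the invariant chain Cd74 at 507 against 1425 CPM; the higher gene was the protease Lgmn, at 2000.2 against 511 CPM. Without cluster 7 among the resident-gene macrophages the median was -0.32, and H2-Ab1, H2-Aa, H2-Eb1 and Cd74 had log2 ratios of -0.95, -0.44, -0.29 and -0.35, none past 2-fold. MHC class I genes had 0 of 15 higher, 1 lower and a median of -0.48, or -0.49 without cluster 7. The cycle lists had 0 of 12 S phase and 0 of 4 mitosis genes past 2-fold in either direction. Dissociation stress genes had 0 of 17 higher and 1 lower.

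**Figure D3:**
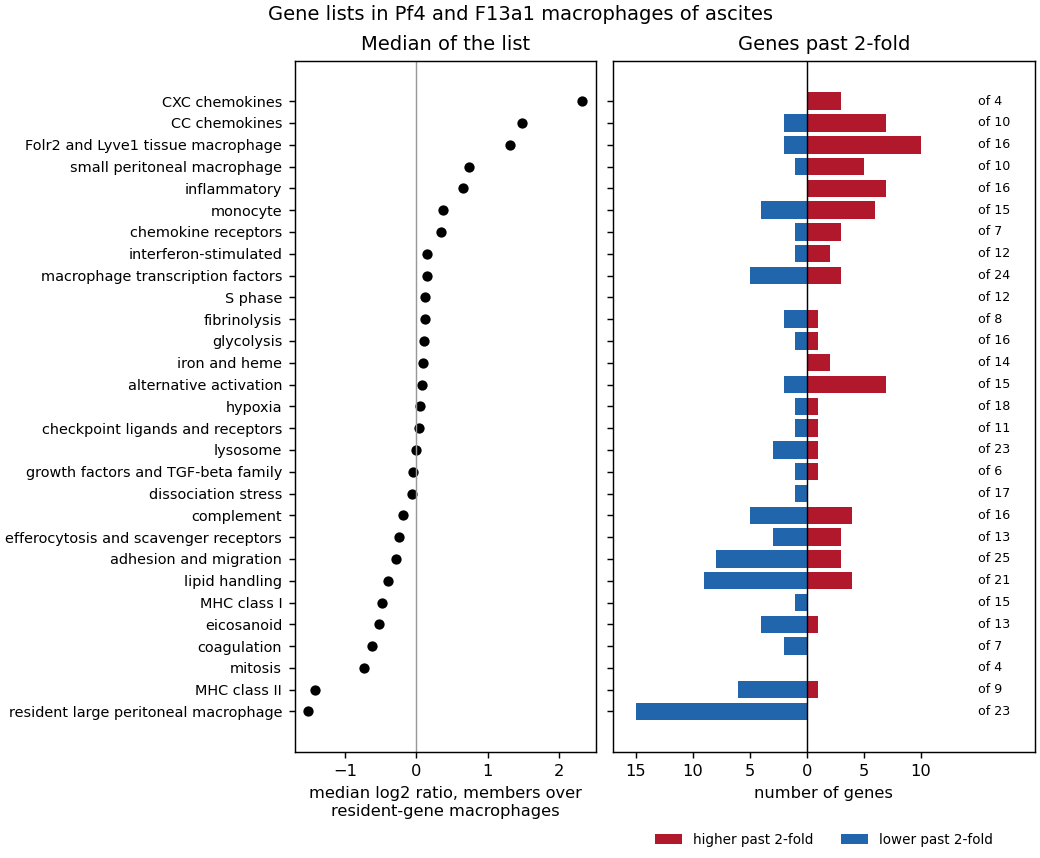
Median log2 ratio of Pf4 and F13a1 macrophages over resident-gene macrophages for each of the 29 pathway and macrophage lists (left) and the number of genes higher (red, to the right of 0) or lower (blue, to the left) past 2-fold (right), with the number of genes measured at the edge. Among these lists, which leave out the markers of single cell types, CXC and CC chemokines had the highest medians, 2.33 and 1.48, and the resident large peritoneal list the lowest, -1.51.

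The remaining lists had genes past 2-fold in both directions. Over all genes measured, 3.43% were higher and 6.49% lower. Fibrinolysis had 1 of 8 higher (S100a10) and 2 lower, among them Serpinb2, eicosanoid synthesis 1 of 13 higher (the leukotriene receptor Cysltr1) and 4 lower, and lysosome genes 1 of 23 higher and 3 lower. Adhesion genes had 3 of 25 higher, among them Sdc4 at 686 against 136 CPM, and 8 lower. Interferon-stimulated genes had 2 of 12 higher, Ifi204 and Ifitm3, and 1 lower. Efferocytosis genes had 3 of 13 in each direction, checkpoint, hypoxia and glycolysis genes 1 in each, and growth factors 1 of 6 in each, with the matrix gene Tgfbi at 1569 against 266 CPM (5.91-fold, 5.49 to 6.35).

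Pf4 and F13a1 macrophages were not uniform. When all ascites cells were clustered by expression, 186 of them fell in cluster 3 and 158 in cluster 4, together 89.6%, and 30 in cluster 6, whose median depth was 985 UMIs. The rule genes were shared between the main clusters, with Pf4 at 13392 CPM in cells of the first and 15882 CPM in cells of the second and F13a1 at 1371 and 951 CPM, whereas Ppbp was at 1475 and 384 CPM and Ccl12 at 1414 and 533 CPM. Since the genes defined the clusters, the values that follow are descriptions.

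Cells of cluster 3 carried the neutrophil chemokine and monocyte genes. Cxcl3 was at 1910.1 CPM, against 137 CPM in cells of cluster 4 (13.9-fold, 10.7 to 18.6), Cxcl2 at 1663 and 286 CPM, Il1b at 199.9 and 14.4 CPM, Ccr2 at 708 and 76.9 CPM, Vcan at 722 and 103 CPM, and Ly6c2 at 169 and 14.4 CPM. Ccl2 was at 4404 and 1574 CPM, and Ccl7 differed less, at 2865 and 1888 CPM. The neutrophil gene S100a8 was at 3764 and 766 CPM along with them, while Retnlg, another neutrophil gene, was at 82.3 and 69.7 CPM; their part in these values was not tested.

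Cells of cluster 4 carried the scavenging and tissue macrophage genes. Hmox1 was at 640 CPM in cluster 3 cells against 4339 CPM in cluster 4 cells (6.78-fold lower), Apoe at 1936 against 7367 CPM, C1qa at 179 against 1218 CPM, Retnla at 51.8 against 605 CPM, Folr2 at 16.5 against 106 CPM and Cd163 at 282 against 793 CPM. Ms4a6c, Maf and Irf8 were close in both, at 830.4 and 764 CPM, 405 and 317 CPM, and 91.7 and 103 CPM. Several list values above depend on this mix. Counting only the chosen cells of cluster 3 against resident-gene macrophages, the median of the Folr2 and Lyve1 list was -0.0396 and that of the small peritoneal list -0.22, and log2 ratios were -0.89 for C1qa, -1.01 for Ccl8 and 0.11 for Hmox1. Counting only those of cluster 4, Clec4e was at -0.20 and Cxcl3 at 1.06. Ccl7 stayed above 3.7 on the log2 scale with either cluster alone.

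**Figure D4:**
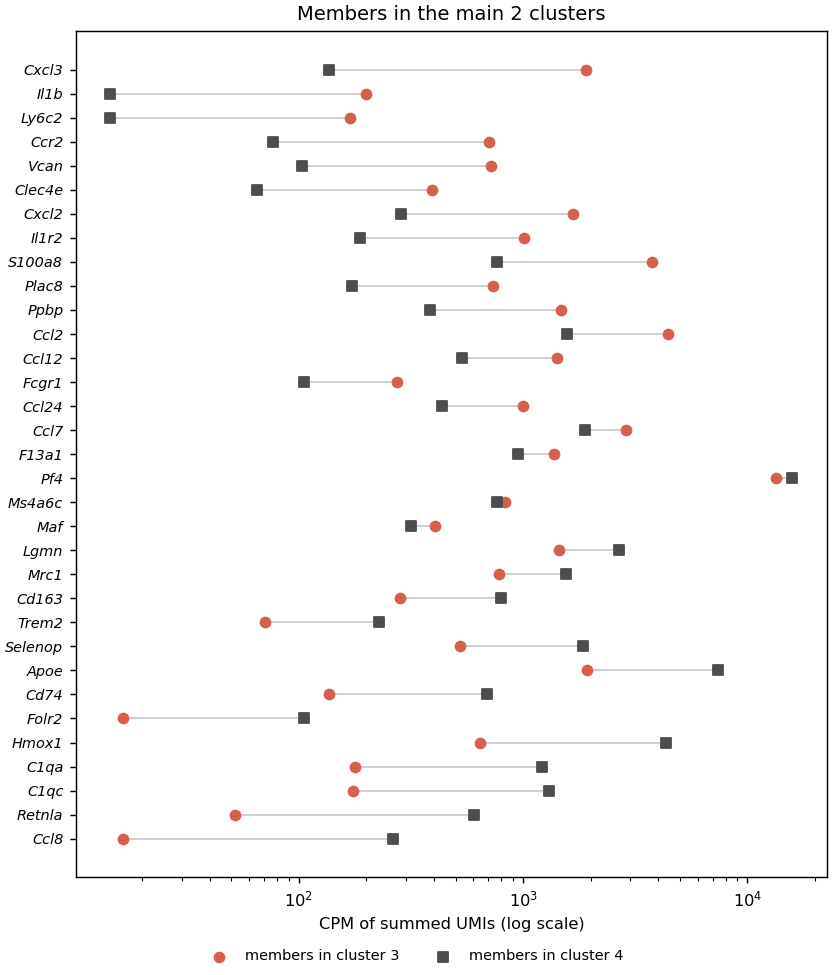
CPM (log scale) of 33 genes in the Pf4 and F13a1 macrophages of cluster 3 (186 cells, red circles) and of cluster 4 (158 cells, dark squares), ordered roughly by ratio. Cxcl3 was at 1910.1 against 137 CPM at the top and Ccl8 at 16.5 against 262 CPM at the bottom, while Pf4 and Ms4a6c lay close together.

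The same clusters held 312 resident-gene macrophages, which had a median of 2 UMIs of the 4 Pf4 set genes and 8 UMIs of the other set, or 0 without Saa3. In these 312 cells Ccl2 was at 1193 CPM, Apoe at 3058 CPM and Retnla at 3216 CPM, against 84.1, 377 and 157 CPM in the 2105 resident-gene macrophages of other clusters. Slpi was at 308 and 2673 CPM in the same order. The rule therefore left outside it cells of the same clusters whose UMIs of Saa3 outnumbered those of the 4 chosen genes.

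Cells ordered by rule-gene UMIs per 1000 UMIs showed which genes varied with the choice. In 4 equal groups of 96 cells from lowest to highest, Ccl7 was at 982, 1304, 2697 and 4032 CPM, Ccl2 at 1873, 2466, 3184 and 3999.7 CPM, and Cd163 at 145, 425, 543 and 977 CPM. Apoe was nearly level, at 4447, 4507, 4584 and 4413 CPM. MHC class II ran down the same order, with H2-Aa at 593, 308, 192 and 57.3 CPM, and Il1b at 204, 166, 46.8 and 16.4 CPM. Retnla was at 1041 CPM in the lowest group and between 61.3 and 83 CPM in the others. Over 309 thinned cells, the genes most like the rule-gene sum were Ccl7, Mrc1, Ccl6, Ccl24 and Cd163 (Pearson r of 0.39, 0.33, 0.31, 0.30 and 0.29 across cells), and Fn1 was least like it at -0.31. Over all 2126 thinned cells of both groups these were Ccl7, Ccl2, Apoe, Lgmn and Ms4a6c (0.57, 0.55, 0.51, 0.46 and 0.44). All of these cells share 1 library, and the choice of cells enters the second set.

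Ppbp was the most uneven of the rule genes. It was absent in 295 of the 384 cells, had 1 UMI in 35 and 2 or more in 54, and the 12 cells with most, with 20 to 131 UMIs each, held 547 UMIs or 66.5% of the total. The platelet list had 0 UMIs in the 54 cells. Compared with the 295 cells without Ppbp, these 54 cells had Pf4 at 26781 against 11636 CPM (2.30-fold, 2.21 to 2.39), Retnla at 895 against 229 CPM (a 3.91-fold ratio), Ccl24 at 1377 against 558 CPM and Cd163 at 788 against 453 CPM. They had C1qc at 229 against 814 CPM (3.55-fold lower, 2.46 to 5.31), Il1b at 22.9 against 119 CPM and Apoe at 2761 against 4895 CPM. F13a1, at 887 against 1188 CPM, did not differ by 2-fold. Retnla did not follow the Ppbp level over the groups ordered by rule-gene UMIs. The lowest group had Retnla at 1041 CPM and Ppbp at 81.4 CPM, and the highest had 61.3 and 2957 CPM.

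The second comparison took cells that met the same rule in the omental tumors. They numbered 254 in KPCA.A (9.59% of cells), 244 in KPCA.B (9.44%) and 480 in KPCA.C (15.5%), with median depths of 6599, 12803.5 and 9939.5 UMIs against 2254 in ascites. Pf4 was at 14354.5 CPM in ascites, against 704, 411 and 1086 CPM in the tumors in that order, and Ppbp at 931 against 40.4, 16.7 and 5.54 CPM. Tissue, age, library, depth, barcode set and gene table differ together, so they cannot be told apart. A gene was counted only where ascites lay beyond all 3 tumors by 2-fold. Of 9520 genes 274 (2.88%) were higher and 1815 (19.1%) lower in ascites, with medians over all genes of -0.59, -0.60 and -0.56 against tumors of KPCA.A, KPCA.B or KPCA.C. With median-of-ratios scaling, which centres the genes, 802 were higher and 571 lower, so the balance of directions is set by the scaling.

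The chemokine lists as a whole were split against the tumors. Of 10 CC chemokines 3 were higher and 2 lower, with medians of -0.18, 0.19 and 0.11, of 8 CXC chemokines 1 was higher and 3 lower, and of 7 receptors 0 were higher and 3 lower. Ccl2, Ccl7, Cxcl3, Cd163 and Hmox1, which were chosen from the ascites comparison, were higher in ascites than in all 3 tumors. Ccl2 was at 2915 CPM against 571, 123 and 409 CPM in the tumors, always in the order of lines A, B and C, Ccl7 at 2315 against 476, 185 and 336 CPM, and Cxcl3 at 1003.5 against 60.1, 3.13 and 106 CPM. Cd163 was at 536 against 36.0, 58.9 and 148 CPM, and Hmox1 at 2403 against 439, 506 and 362 CPM. Several genes that set these cells apart within ascites were near the tumor level, with Mrc1 at 1134 against 1045, 1123 and 1550 CPM, Ms4a6b at 193 against 234, 171 and 257 CPM, and Apoe at 4485 against 6063, 5207 and 5256 CPM. The largest ratios belonged to Wfdc17, Wfdc21 and S100a8, with Wfdc17 at 29027 against 518, 647 and 373 CPM and S100a8 at 2239 against 7.71, 7.12 and 6.14 CPM. Within ascites, Wfdc17 and S100a8 were not particular to these cells. Wfdc17 was at 59233 CPM in cluster 5 and 32453 CPM in ascites cells outside it, and S100a8 did not pass 2-fold against resident-gene macrophages.

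MHC class II and interferon genes were lower than in the tumors. Of 10 MHC class II genes 8 were lower and 0 higher, with medians of -3.61, -3.86 and -2.75; Cd74 was at 507 against 9515, 11407 and 5397 CPM. Of 22 interferon-stimulated genes 17 were lower and 0 higher, with medians of -1.70, -1.89 and -2.17. The interferon-induced chemokine gene Cxcl9 had 0 UMIs in ascites, which allows up to 3.39 CPM, against 320.3, 333 and 120.2 CPM. MHC class I had 11 of 16 lower. The lectin gene Mgl2 was at 4.53 against 469, 990.5 and 209.6 CPM, the elastase gene Mmp12 at 12.4 against 798, 698 and 393 CPM, and Ccl24, which was higher in these cells within ascites, at 708 against 4108, 2664 and 2728 CPM. The proton pump subunit gene Atp6v0c was at 3.39 against 1160, 989 and 1046 CPM; the gene tables of ascites and tumors differ, and whether this bears on it was not tested.

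The third comparison asked whether genes that separate Pf4 and F13a1 macrophages from resident-gene macrophages in ascites do so within tumors, in libraries that did not enter that choice of genes. Saa3 was left out of the rule for resident-gene cells here, which gave 1598 such cells in ascites, 150 in KPCA.B and 53 in KPCA.C; KPCA.A had 9 and was not used. The rule itself was applied in the tumors, so its genes are left out, and tumor cells of both kinds come from 1 library each. Genes that vary with the rule genes can separate again through that choice, so the shares below are a description. Tumor cells meeting neither rule were not compared. In ascites 317 of 6448 genes (4.92%) were higher and 490 (7.6%) lower. Within KPCA.B 413 of 8599 genes were higher (4.8%) and 381 lower (4.43%) in rule-matched cells, and within KPCA.C 786 of 8466 (9.28%) and 460 (5.43%).

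Most of the ascites genes kept their direction. Of the 317 higher genes 304 were measured in both tumors, and 249 of these (81.9%) were above 0 in both, against 44.5% of all 6103 genes; 103 (33.9%) passed 2-fold in both, against 2.79% of all genes. Of the lower genes 385 were measured in both tumors, 289 (75.1%) were below 0 in both, against 26.5% of all genes, and 121 (31.4%) passed 2-fold in both, against 2.64%. Medians of the higher genes were 0.72 in KPCA.B and 1.12 in KPCA.C, and those of the lower genes -0.68 and -0.77.

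**Figure D5:**
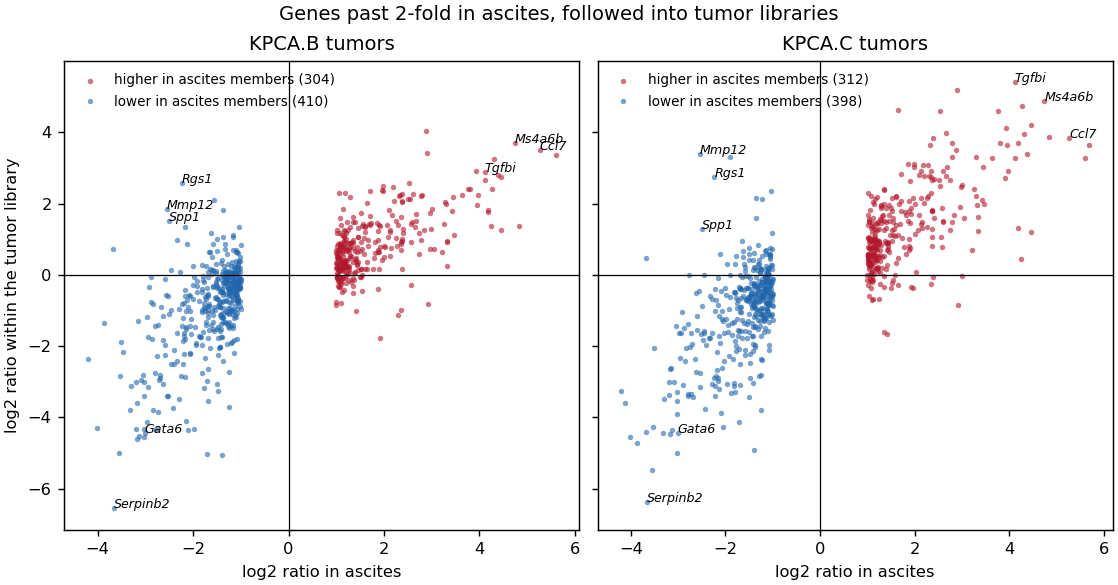
Log2 ratio of CPM plus 5 within KPCA.B tumors (left) and KPCA.C tumors (right) of rule-matched over resident-gene cells, against the same ratio in ascites, for genes past 2-fold in ascites and measured in that tumor (red, higher in ascites; blue, lower). Most red points lie above 0 and most blue points below it, with Rgs1, Mmp12 and Spp1 among the exceptions.

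Ccl7, Ms4a6b, Ccr2 and Apoe were among those that held. Other chemokine genes are not described within the tumors here, so Ccl7 does not stand for the chemokine lists. Within KPCA.B, rule-matched cells had Ccl7 at 185 CPM against 11.7 CPM in resident-gene cells, Ms4a6b at 171 against 8.58 CPM, Ccr2 at 973 against 179 CPM and Apoe at 5207 against 972 CPM. Within KPCA.C, Ccl7 was at 336 against 18.7 CPM, Ms4a6b at 257 against 3.90 CPM, Ccr2 at 1003 against 32.8 CPM and Apoe at 5256 against 213 CPM. Gata6 was at 0.854 against 121 CPM in KPCA.B and 1.73 against 139.6 CPM in KPCA.C. These genes thus differed in the same direction in all 3 libraries. Others did not. Hmox1 had log2 ratios of 2.56 in ascites, -0.30 in KPCA.B and 1.05 in KPCA.C, Il6 2.92, -0.81 and -0.85, and Clec4e 1.92, -1.76 and -0.36. None of these differences between libraries was tested.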

How the data were processed

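Single cells of 4 droplet libraries were analysed, 1 of KPCA ascites and 1 for each omental tumor line (KPCA.A, KPCA.B or KPCA.C). The authors deposited whole-number UMI counts per gene and barcode, not normalized, written by Cell Ranger 3.0.2 (ascites) and 4.0.0 (tumors) per the file headers; the submitters' processing notes give Cell Ranger 3.1.0 and mm10. Other values in the deposited files are gene identifiers, symbols and barcodes. The gene tables list 31053 genes in ascites and 32285 in tumors, with 30406 shared, and CPM of tumor cells are over shared genes, which hold 99.5 to 99.9% of UMIs. Ascites and tumor barcodes come from different sets, against the labels' common chemistry.

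Cells were kept from 300 genes and 500 UMIs upward, with a mitochondrial share of 15% or less. Counts were summed per group. Intervals of ratios are exact conditional ones and those of shares Clopper-Pearson ones, covering counting error only. The limits given for 0 counts (0.971% for Gata6 and 3.39 CPM for Cxcl9) are not such intervals. They are 3 counts divided by the 309 thinned cells or the 883902 UMIs. Cells are not replicates, so no p-value was computed. Scrublet marked 7 of 2921 ascites cells (0.240%) and 22 of 11253 in all (0.196%). That is below the rate it was set to expect, so its marks were not used to remove cells. Doublets may remain, and their number was not tested. Clusters come from ascites alone (scanpy 1.11.5, leidenalg 0.10.2, 2000 variable genes, 30 components, 15 neighbours, resolution 1) and are called by number. The rule, lists and members were chosen with earlier results of these data known. Named genes had at least 50 UMIs and 50 CPM in the higher group and were the 12 per direction that differed most from resident-gene macrophages, the 8 per direction from the nearest tumor, the 5 leading genes of each list, the 5 most correlated with the rule-gene sum, and the rule genes; genes named outside this were chosen after their values were seen. Ribosomal, mitochondrial and immunoglobulin genes were left out. The interval and 2-fold steps were tested on simulated counts, and thinning was checked on a part of the chosen cells. Alternatives varied the cell filter, the rule, doublets, scaling, the CPM added, gene filter, depth and clustering; comparisons without cluster 7, by cluster, and with other resident-gene rules were added after the data were seen. Coordinates are GENCODE vM21 on GRCm38. Software was python 3.11.15, numpy 2.4.6, scipy 1.17.1 and pandas 2.3.3. Some genes counted within the lists are not reported here by name.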

Additional observations from a re-analysis of the deposited data

Results flagged for a closer look

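A set of 7 genes passed 2-fold in ascites in one direction and in KPCA.B and KPCA.C tumors in the other, when cells meeting the Pf4 and F13a1 rule were set against resident-gene cells chosen without Saa3 in the same library. Each direction rests on 1 library, and the difference was not tested.

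Of these, 6 were lower in the ascites cells and higher in the tumor cells. Spp1, which encodes osteopontin, had a log2 ratio of -2.51 in ascites (864 CPM in Pf4 and F13a1 macrophages against 4930.0 CPM in resident-gene cells), 1.51 in KPCA.B (799 against 277 CPM) and 1.30 in KPCA.C (2807 against 1141 CPM). The elastase gene Mmp12 had -2.55 in ascites (12.4 against 97.0 CPM), 1.85 in KPCA.B (698 against 191 CPM) and 3.40 in KPCA.C (393 against 32.8 CPM). Rgs1 and Rgs2 encode regulators of G protein signalling. Rgs1 had -2.24 in ascites, 2.57 in KPCA.B and 2.74 in KPCA.C, and Rgs2 -1.36, 1.81 and 2.15. Gcnt2, a glycosyltransferase gene, had -1.36, 1.05 and 1.58, and Retreg1, a gene of reticulophagy, -1.04, 1.33 and 2.34.

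Mdm1 was the reverse case, at 1.41 in ascites (26.0 against 6.64 CPM), -1.01 in KPCA.B (8.54 against 22.3 CPM) and -1.66 in KPCA.C (4.99 against 26.5 CPM), on low levels in each library.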

How the results depend on the processing

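Each group has 1 library, so counts and ratios carry counting error only, and whether they hold in other mice cannot be told from these data. The 384 cells ranged from 294 to 401, and their share from 12.2 to 14.1%, over the other filters and rules. Shallow ascites cells limit what 0 UMIs can show. No paired analysis was possible because each group has 1 library. Over all alternatives 2545 log2 ratios of named genes stayed within the width of the counting interval of the reported value, 324 moved beyond it and 8 turned sign. Of the list medians 643 stayed within the interval of the reported median, 14 moved beyond it and 3 turned sign. A turn of sign was counted only where the reported ratio of a gene was past 2-fold or the reported list median was not near 0. Smaller values that changed sign are not among these counts. Some genes given above, such as Il1b, were not followed over the alternatives.

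Counts of genes moved by over 1.5 times as follows. With 20 CPM added, 134 genes were higher and 206 lower against resident-gene macrophages, 128 and 202 against all other ascites cells, and 636 lower against tumors. Against tumors, 1 CPM added gave 2798 lower, Krt8 not used 2738 lower, the rule on thinned cells 172 higher and 463 lower, thinned cells 180 and 824, and median-of-ratios scaling 802 and 571. With members of cluster 3 only, 371 were higher and 806 lower against resident-gene macrophages and 832 lower against all other ascites cells. The cause was not tested. The share of members in the main pair of clusters was 95.8% at resolution 0.5 and 74.2% at resolution 2.

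Values counted as turning sign under that limit were Ccl17 at 0.0295 and Ccl5 at 0.53 without cluster 7, and Ccl5 at 1.33 with resident-gene cells chosen without Saa3. With members of cluster 3 only, the small peritoneal list was at -0.22, the Folr2 and Lyve1 list at -0.0396, the macrophage marker list at -0.52, Clec10a at -0.0396, C1qb at -0.17, C1qa at -0.89 and Ccl8 at -1.01. With members of cluster 4 only, Clec4e was at -0.20. With Saa3 kept in the resident-gene rule, 66.3% of the lower ascites genes were below 0 in both tumors, against 75.1% without it.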
